A study of Mus musculus with 18 samples.

Results

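Lepr encodes the leptin receptor, and Leprot and Leprotl1 encode a pair of related small membrane proteins that act on its trafficking. The 3 genes were taken by symbol out of the 20105 genes of the count table. Lepr was chosen by its difference between fasted and fed hepatocyte nuclei in these same data, where its log2 fold change was number 4 from the top of 12548 genes in fresh liver and number 9 of 12926 in frozen liver. Leprot and Leprotl1 were selected on their names and functions, as relatives of it. For that reason the fasting differences of the 3 genes in IP and their fasted IP values set against the supernatant are given as a description, with no test, as is the fed IP level of Lepr set against the supernatant. Tests are given for fasting in the supernatant, for freezing, and for the fed fractions of Leprot and Leprotl1.

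The samples came from 6 female HEP-INTACT mice. In these mice the nuclei of hepatocytes are tagged, and beads that bind the tag pull them out of the mixed liver nuclei (immunoprecipitation, IP). Fed mice (3) ate ad libitum and fasted mice (3) had no food for 16 h, a fast begun when the lights went off (zeitgeber time 12), and both were killed at the same hour. Each mouse gave 3 libraries of nuclear total RNA, namely the IP from fresh liver, the supernatant that stayed behind after that IP, and the IP from frozen liver, so there were 6 groups of 3 libraries. Every group, the fed controls included, carried the tag. The promoter that drives the tag and the age of the mice are not given in the sources used here. Total counts per library ran from 13828945 to 54434263. Levels are CPM, counts scaled to the effective size of each library, as mean ± SD over n = 3 libraries, and differences are log2 fold changes ± the standard error (SE) of the difference of group means. Libraries of a group are named A, B and C after the columns of the table.

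The leptin receptor is a class I cytokine receptor. Leptin, secreted by fat tissue, brings 2 receptor chains together, the bound kinase JAK2 is activated, and STAT3, SHP2 (Ptpn11) and insulin receptor substrates carry the signal on, while SOCS3 and PTP1B (Ptpn1) switch it off. The gene makes a long signalling form and shorter forms, and the outer part of the receptor can be cut off by the proteases ADAM10 and ADAM17 and then circulates as a soluble leptin-binding protein, of which the liver is a known source. Leprot, also called endospanin 1, holds the receptor inside the cell on the route to lysosomes and so lowers its number at the surface, and Leprotl1 (endospanin 2) is its closest relative.

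On the mm10 build, Lepr spans chromosome 4 from 101717407 to 101815354 on the plus strand (97.95 kb), and Leprot spans 101647783 to 101659358 on the same strand (11.58 kb). The 2 intervals did not overlap: 58048 bp lie between the end of Leprot and the start of Lepr, so the counted intervals share no base. Leprotl1 is no chromosomal neighbour. It lies on chromosome 8 from 34135572 to 34146739 on the minus strand (11.17 kb). GENCODE places 7 transcripts at Lepr, of which 4 are protein coding, 2 at Leprot and 1 at Leprotl1, and none runs across both genes of chromosome 4. Counts were made over the whole span, introns included, so the long and short forms of the receptor could not be told apart. All 3 genes were counted in each of the 18 libraries, with 160 to 18233 counts for Lepr, 106 to 2024 for Leprot and 64 to 475 for Leprotl1.

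The 250 bases before the counted starts of Leprot and Lepr are shown because the 2 genes lie head to tail at 1 locus and both rose in the supernatant. They are RefSeq sequences of GRCm38.p6 (2 of the 3 members matched), plus strand, and capitals mark every GC box (GGGCGG) and CCAAT box (CCAAT) on either strand, motifs picked after the sequences were seen.
Leprot, chr4:101647533-101647782: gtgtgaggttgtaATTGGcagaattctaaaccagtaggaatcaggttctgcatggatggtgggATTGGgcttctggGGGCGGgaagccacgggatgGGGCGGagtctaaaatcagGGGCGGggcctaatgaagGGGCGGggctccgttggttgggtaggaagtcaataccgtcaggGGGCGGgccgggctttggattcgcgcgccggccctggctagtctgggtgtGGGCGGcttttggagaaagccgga
Lepr, chr4:101717157-101717406: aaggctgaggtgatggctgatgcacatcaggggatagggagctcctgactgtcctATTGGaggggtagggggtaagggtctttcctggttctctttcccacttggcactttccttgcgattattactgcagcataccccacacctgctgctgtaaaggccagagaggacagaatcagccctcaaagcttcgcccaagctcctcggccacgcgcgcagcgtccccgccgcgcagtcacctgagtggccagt
The Leprot stretch held 6 GC boxes and 2 CCAAT boxes, and the Lepr stretch held 0 and 1. A GC box was found in 32.74% and a CCAAT box in 33.85% of the 32851 promoters of the same length in that table. Their GC content was 60.8% and 58.4%, against a median of 52.4%. Searched on both strands, a STAT site (TTCNNNGAA, in 7.02% of promoters), a cyclic AMP response element (TGACGTCA, 1.546%), a forkhead box O core (TGTTTAC, 3.166%), a nuclear receptor core (AGGTCA, 14.02%), a glucocorticoid receptor core (AGAACA, 16.08%) and an E-box (CACGTG, 6.021%) had 0 matches in either stretch. A second RefSeq start of Lepr, at 101717906, had 1 GC box and none of the other motifs in its 250 bases.

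In fed hepatocyte nuclei Lepr was scarce. The 3 fed libraries of fresh IP held 5.43, 10.8 and 5.88 CPM (A, B and C), and those of frozen IP held 5.04, 14.1 and 6.06 CPM. The 3 fasted libraries held 141, 48.8 and 550.3 CPM in fresh IP and 152, 48.7 and 468 CPM in frozen IP. Every fasted IP library lay above every fed one, and the lowest fasted library was B in both preparations. Means were 7.36 ± 2.97 CPM fed and 246.5 ± 267 CPM fasted in fresh IP (SD, n = 3), a log2 fold change of 5.10 ± 1.06, or 34.3-fold. In frozen IP they were 8.41 ± 4.98 and 223 ± 219 CPM (SD, n = 3), a log2 fold change of 4.78 ± 1.05, or 27.5-fold. Leaving out fasted library C brought it to 3.72 in the fresh and 3.63 in the frozen preparation, so that library carried a large share of the mean. Across all genes, 25.1% passed edgeR's test at an adjusted p under 0.05 in fresh IP and 22.6% in frozen IP, and since Lepr was chosen on this contrast nothing is read from it. In the authors' deposited table the log2 fold changes of Lepr were 5.005 (fresh) and 4.645 (frozen).

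Leprot and Leprotl1 did not share that difference. Leprot held 7.39, 6.86 and 6.83 CPM in the fed libraries of fresh IP and 7.26, 6.98 and 6.64 CPM in the fasted ones, which overlapped, with a log2 fold change of 0.01 ± 0.05. In frozen IP it held 6.77, 8.36 and 6.82 CPM fed and 6.71, 6.76 and 6.55 CPM fasted. Here each fasted library lay just below each fed one, with a log2 fold change of -0.12 ± 0.10 that was -0.03 without fed library B. Leprotl1 held 4.12 to 5.81 CPM in fed and 4.605 to 6.19 CPM in fasted fresh IP, and 4.12 to 5.05 and 4.21 to 5.77 CPM in frozen IP. Its log2 fold changes were 0.22 ± 0.19 and 0.18 ± 0.16, with overlapping groups in both. The authors' deposited table gives -0.06 and -0.16 for Leprot and 0.16 and 0.12 for Leprotl1.

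**Figure D1:**
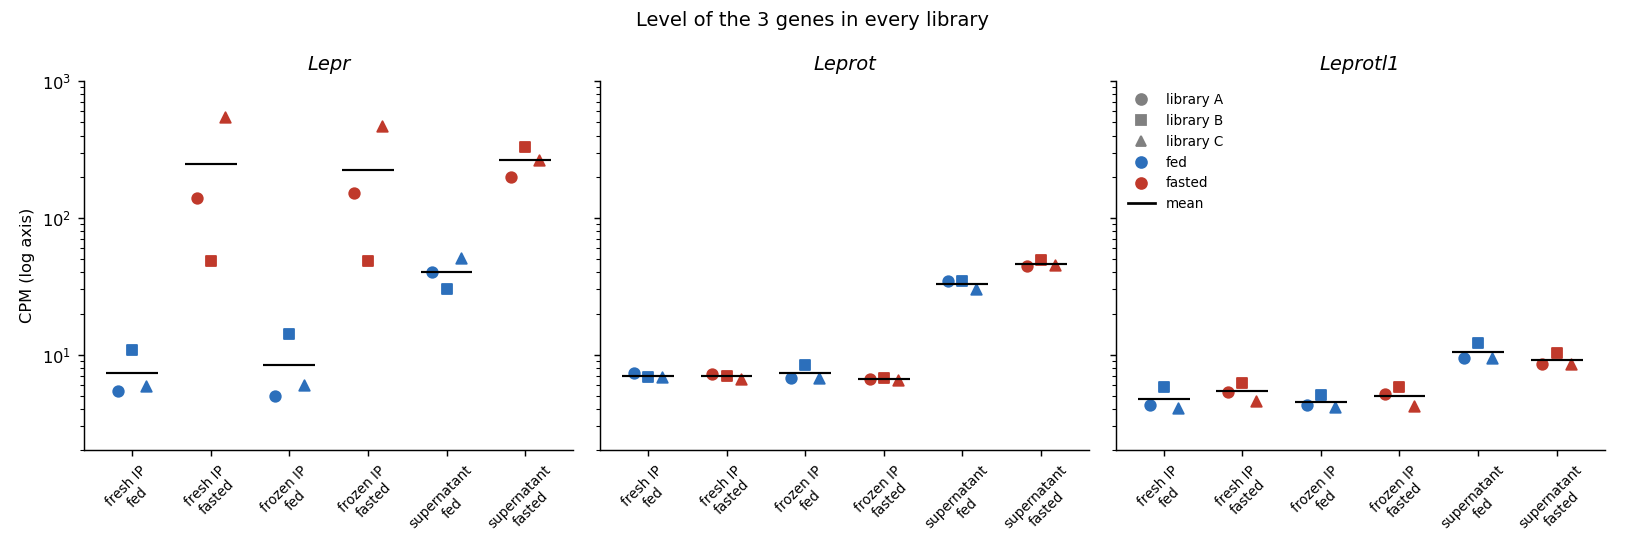
Level of Lepr, Leprot and Leprotl1 in CPM (log axis) in each of the 18 libraries by group, fed in blue and fasted in red, with the marker shape giving the column letter and the bar the group mean. Fasted Lepr lies above fed Lepr in all 3 preparations, while Leprot and Leprotl1 stand mainly at 2 heights, that of the IP libraries and that of the supernatant.

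The supernatant was not used to choose the genes, although it came from the same 6 mice, and there Lepr rose with fasting. Its fed libraries held 40.1, 30.1 and 51.4 CPM and its fasted libraries 198, 329 and 263 CPM. The groups did not overlap, and the lowest fasted library was well above the highest fed one. Means were 40.5 ± 10.6 and 263 ± 65.4 CPM (SD, n = 3), a log2 fold change of 2.71 ± 0.31 or 6.53-fold (edgeR, adjusted p = 0.00317). Of 13921 genes tested, 6.22% passed in either direction and 3.38% were higher in fasted, and Lepr stood at number 30 from the top. The call ended when all 6 groups were fitted together and so shared 1 estimate of the spread (2.71, adjusted p = 0.0682).

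Leprot rose in the supernatant too, by less. It held 34.4, 34.4 and 30.3 CPM in fed and 44.2, 49.6 and 45.1 CPM in fasted libraries, again without overlap. Means were 33.03 ± 2.36 and 46.3 ± 2.88 CPM (SD, n = 3), a log2 fold change of 0.50 ± 0.07 or 1.41-fold (edgeR, adjusted p = 0.0216). That call is a narrow one: leaving out fasted library A, fasted B, fed B or fed C moved the adjusted p to 0.0724, 0.0664, 0.0539 and 0.0747, with log2 fold changes of 0.44 to 0.53. Leprotl1 did not pass, with 9.49, 12.2 and 9.47 CPM fed and 8.60, 10.2 and 8.62 CPM fasted and a log2 fold change of -0.17 ± 0.15 (edgeR, adjusted p = 0.527). Thus 2 of the 3 genes passed in the supernatant, where 6.22% of all genes did.

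The fasting difference of Lepr was larger by 2.395 ± 1.10 (log2, ± SE) in fresh IP than in the supernatant, and that of Leprot was smaller by a difference of -0.49 ± 0.09. For Leprotl1 the same difference was 0.39 ± 0.24. Without fasted IP library C that of Lepr fell to 1.01. Between fresh and frozen IP these differences were 0.32 ± 1.49, 0.13 ± 0.11 and 0.04 ± 0.25. They are given as values, because the IP response entered the choice of the genes, and were not tested. Their SEs take the preparations as independent, though the same mice gave them.

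**Figure D2:**
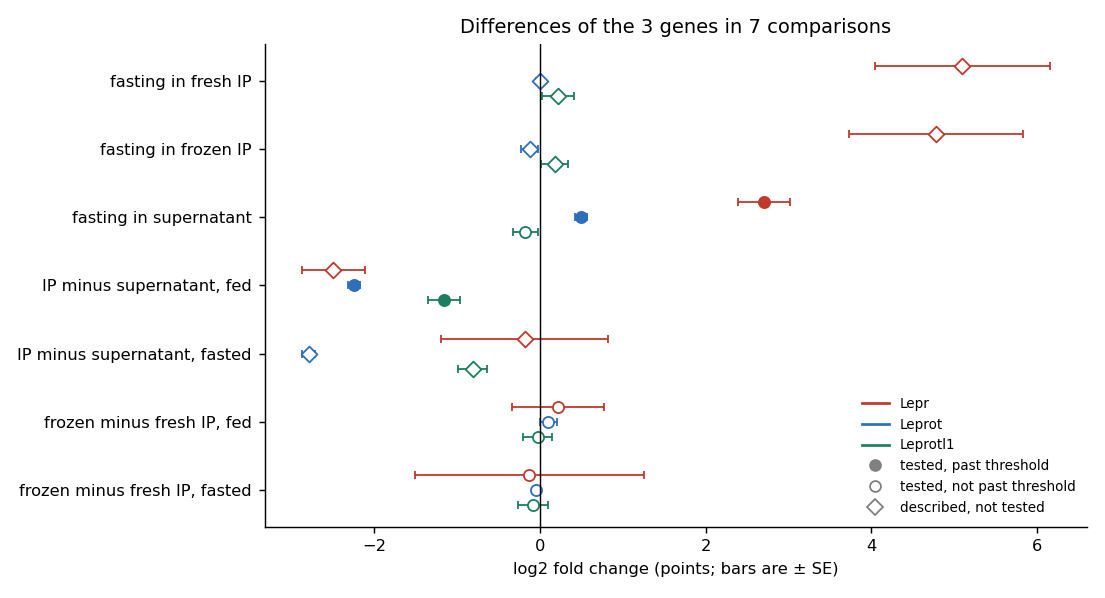
Log2 fold change (points) with its SE (bars) of Lepr, Leprot and Leprotl1 in the 7 comparisons; filled circles passed edgeR's test, open circles did not, and open diamonds are described with no test. Lepr stands at 5.10, 4.78 and 2.71 for fasting in the 3 preparations, and Leprot between -2.79 and -2.24 for IP minus supernatant.

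In fed mice Leprot and Leprotl1 were lower in hepatocyte nuclei than in the supernatant of the same livers. Leprot had a log2 difference of -2.24 ± 0.07 (4.74-fold lower; edgeR, adjusted p = 6.55e-07) and Leprotl1 one of -1.16 ± 0.19 (2.23-fold lower; edgeR, adjusted p = 0.000616). Lepr had -2.49 ± 0.38 (5.63-fold lower), with no test, since its low fed IP level is part of the difference it was chosen for. The SEs leave out that the same mice gave both fractions. No supernatant library of a gene overlapped its IP libraries. This was a common outcome: 76.4% of 13881 genes differed between the fractions in fed mice and 38.7% were lower in IP, and the 2 calls are to be read against that share. In fasted mice, where 80.5% of genes differed, the log2 differences were -2.79 ± 0.08 for Leprot and -0.81 ± 0.17 for Leprotl1, given with no test. For Lepr the fasted fractions overlapped, with a log2 difference of -0.19 ± 1.01 that was -0.75 with the column letter as a block, -1.51 without fasted IP library C and 0.31 without fasted IP library B.

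The hepatocyte label of the IP was checked against markers, from lists chosen with earlier results of these data known. It held against all lists of other cells but that of cholangiocytes. Of 18 hepatocyte markers 17 were in the table, and their summed level was 15510 to 25150 CPM in fed and 23730 to 32880 CPM in fasted fresh IP against 612 to 1116 and 1026 to 1730 CPM in the supernatant. In fed mice 17 of 17 were higher in IP, and 15 of 15 endothelial, 12 of 12 Kupffer cell and macrophage, 12 of 12 stellate cell and fibroblast and 9 of 9 lymphocyte markers were lower in IP (edgeR). Of all 13881 genes tested there, 5236 were higher and 5369 lower in IP. None of these marker lists had a gene at 0 in a whole group. The ratio of supernatant to fresh IP (of mean CPM) put the 3 genes between these classes. It was 5.51 for Lepr, 4.70 for Leprot and 2.20 for Leprotl1 in fed mice, against a median of 0.0375 over hepatocyte markers (0.0228 to 0.136), 14.4 over stellate, 26.3 over endothelial, 88.9 over lymphocyte and 356 over Kupffer cell markers. The 7 cholangiocyte markers were split, from 0.0208 to 9.23. Of the 5 tested in fed mice 3 were higher in IP and 1 lower (edgeR). Their summed level was 560.5 to 581.3 CPM in fed fresh IP against 13.0 to 15.5 CPM in fed supernatant. In fasted mice the ratio was 1.07 for Lepr, above the highest hepatocyte marker (0.267) and below the lowest endothelial and stellate ones (44.9 and 12.1). It was 1.70 for Leprotl1 and 6.65 for Leprot, which lay above the lowest Kupffer cell marker (5.20). In such bulk samples fewer cells of a type and less RNA per cell cannot be told apart.

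**Figure D3:**
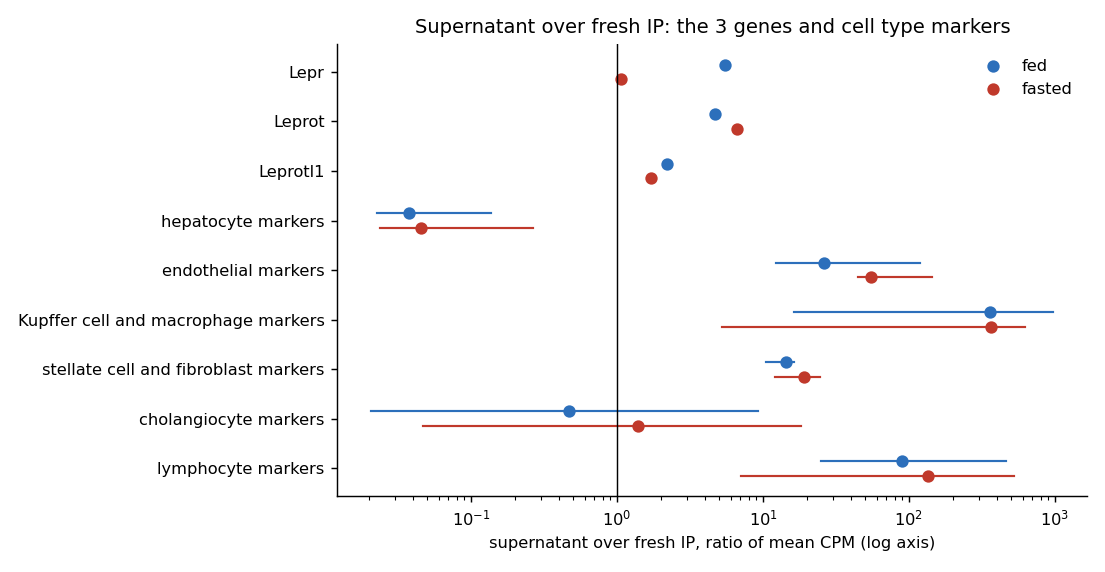
Ratio of mean CPM in the supernatant to that in fresh IP (log axis) for the 3 genes and for 6 lists of cell type markers, fed in blue and fasted in red; for a list the point is the median gene and the line runs from its lowest to its highest gene. Lepr moves from 5.51 in fed to 1.07 in fasted mice, between the hepatocyte markers on the left and the endothelial markers on the right.

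Some marker levels differed with feeding in the supernatant as well, beside the rise of Lepr and Leprot there. The summed level of 15 endothelial markers was 3066 to 4038 CPM in fed and 3769 to 5129 CPM in fasted supernatant. That of 12 Kupffer cell markers was 5062 to 7180 and 3503 to 4964 CPM, and that of 12 stellate markers 838 to 1298 and 786 to 929 CPM. Fed and fasted sums overlapped for endothelial and stellate markers and not for Kupffer cell markers. Of all genes 6.22% passed in the supernatant and 3.38% were higher in fasted. Of the endothelial markers 2 of 15 rose, Lyve1 by 2.37 ± 0.58 and Stab1 by 0.79 ± 0.22 (log2), both scavenger receptors of sinusoidal endothelium. Of the hepatocyte markers tested there 3 of 16 rose, Pck1 (gluconeogenesis) by 1.81 ± 0.53, Apoa1 (the main protein of high-density lipoprotein) by 1.72 ± 0.39 and Hnf4a (a hepatocyte transcription factor) by 0.77 ± 0.22. Each of these 5 calls was lost in 2 or more of the 6 fits that left out 1 library, and Lyve1 had 1.65 without fasted library C. In the fit of all 6 groups the calls of Stab1 and Pck1 ended, as did that of Lepr, and those of Lyve1, Apoa1 and Hnf4a held. In the supernatant 0 of 12 Kupffer cell and 0 of 4 cholangiocyte markers passed with fasting. Of 12 stellate markers 1 was lower (Col3a1, -1.32), as was 1 of 9 lymphocyte markers (Bank1, -0.73), and 0 were higher. In IP the summed endothelial markers were 83.3 to 158 CPM fed and 43.7 to 98.1 CPM fasted in fresh IP, and 234 to 331 and 140 to 202 CPM in frozen IP. Of these 15 markers 0 were higher and 1 lower with fasting in fresh IP, and 1 (Lyve1, 1.17 ± 0.28) was higher and 7 lower in frozen IP (edgeR). Beside them 25.1% of all genes passed in fresh IP and 22.6% in frozen IP. The part of such shifts in the values of Lepr and Leprot was not tested.

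Freezing the liver left Leprot and Leprotl1 without a detected change. Lepr did not pass either, but its fasting difference in both IPs entered its choice. No conclusion is therefore drawn from its likeness between them or from its p-values here. In fed mice frozen minus fresh IP gave log2 differences of 0.22 ± 0.55 for Lepr, 0.10 ± 0.11 for Leprot and -0.03 ± 0.18 for Leprotl1, and in fasted mice -0.13 ± 1.38, -0.05 ± 0.04 and -0.09 ± 0.18, all with an adjusted p of 0.9998 in edgeR. In fasted mice the Lepr difference was -1.28 without frozen library C and 1.25 without fresh library C. Among all genes 0.0% passed in fed mice (0 of 12689 in edgeR, with 909 at an unadjusted p under 0.05 and 430 passing in DESeq2), and 0.495% (63 of 12720) passed in fasted mice. With the column letter as a block those counts were 181 and 2939, and the 3 genes did not pass there either. Their SEs leave out that the libraries pair up. Library by library the ratio of frozen to fresh was 0.851 to 1.31 for Lepr, 0.916 to 1.22 for Leprot and 0.870 to 1.001 for Leprotl1, and 5 of 6 pairs of Lepr libraries were within 20%.

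Among fasted mice Lepr varied far more in the IP than in the supernatant. The highest fasted library was 11.3 times the lowest in fresh IP and 9.61 times in frozen IP, in the order C, A, B both times, but 1.66 times in the supernatant, in the order B, C, A. Over all genes the median of this ratio was 1.27 in fresh IP, and 26 of 12537 genes, Lepr counted, were at or above Lepr. In frozen IP 20 of 12536 were, and in the supernatant 1395 of 12456. The fasted IP values entered the choice of Lepr, so its spread and rank in IP are a description and nothing is read from them. The 16 genes of a list of fasting-induced hepatocyte genes varied less, by 1.23 to 3.59 times in fresh IP (median 1.74), with Fgf21, a fasting hormone of the liver, the widest. Their libraries stood in the order C, A, B for 1 of 16 genes in fresh and 3 of 16 in frozen IP. In the fed IP libraries B was the highest for Lepr, 10.8 and 14.1 CPM, and also the highest for the summed Kupffer cell markers, 23.2 against 10.5 and 10.9 CPM in fresh and 106 against 31.7 and 34.5 CPM in frozen IP. In fresh fed IP the endothelial, stellate and lymphocyte sums were highest in C (158, 129 and 11.3 CPM), where Lepr was 5.88 CPM. In frozen fed IP the endothelial and lymphocyte sums were highest in B (331 and 48.2 CPM) and the stellate sum in C (121 CPM). Frozen fed B was also the smallest library, with 13828945 counts. The part of such cells in the fed Lepr level was not tested, and without fed library B the log2 fold change in frozen IP was 5.32.

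**Figure D4:**
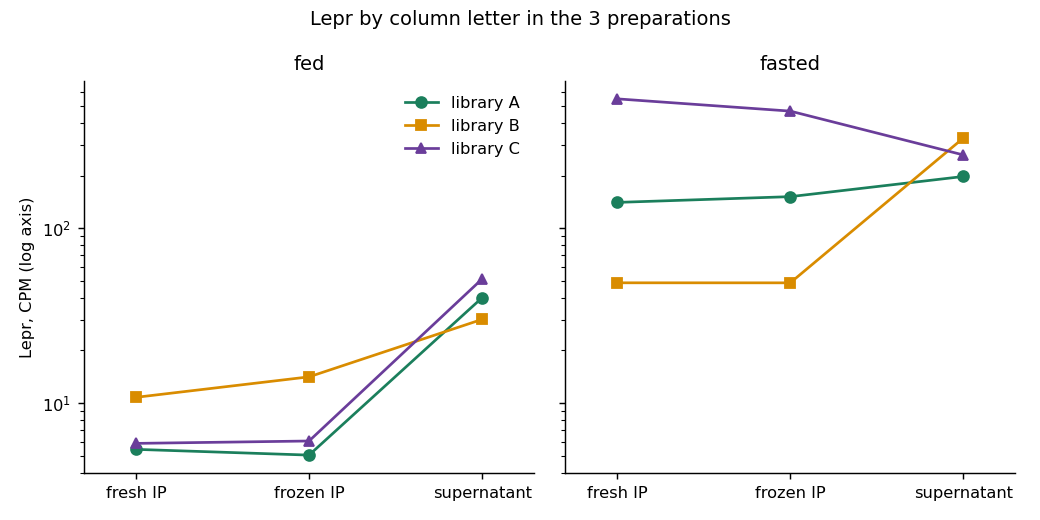
Lepr in CPM (log axis) in fresh IP, frozen IP and supernatant, with lines joining libraries of the same column letter, fed on the left and fasted on the right. The fasted lines keep their order from fresh to frozen IP (550.3, 141 and 48.8 to 468, 152 and 48.7 CPM) and cross towards the supernatant.

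Between genes, levels are compared per kb of span. Fed fresh IP held 0.0752 ± 0.0303 CPM per kb of Lepr, 0.607 ± 0.0270 of Leprot and 0.424 ± 0.0831 of Leprotl1 (SD, n = 3), so Lepr was the lowest of the 3. Fasted fresh IP held 2.52 ± 2.73, 0.601 ± 0.0266 and 0.483 ± 0.0709 CPM per kb, with Lepr the highest in mean. In its library B, however, Lepr (0.498) lay below Leprot (0.603) and Leprotl1 (0.554). In the supernatant Leprot led in both states, with 2.85 ± 0.204 CPM per kb fed and 4.002 ± 0.249 fasted, against 0.414 ± 0.108 and 2.69 ± 0.668 for Lepr and 0.932 ± 0.143 and 0.820 ± 0.0846 for Leprotl1. Ordered by mean CPM, the groups of Lepr ran from fresh IP fed and frozen IP fed to supernatant fed, frozen IP fasted, fresh IP fasted and supernatant fasted, and only the step from frozen IP fed to supernatant fed was free of overlap. For Leprot the 4 IP groups overlapped in their order and the 2 steps up to supernatant fed and on to supernatant fasted did not. For Leprotl1 the only such step was that from the IP to the supernatant.

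Of the genes that carry the leptin receptor's signal, those that passed with fasting went both ways in hepatocyte nuclei, as all genes did. Of 22 such genes 4 were higher, 4 lower and 14 not past the threshold in fresh IP (median log2 fold change -0.05, all genes 0.01). There 25.1% of all genes passed, 1559 higher and 1586 lower. In frozen IP 4 were higher and 3 lower (22.6% of all genes passed), and in the supernatant 2 were higher and 0 lower (6.22% passed). Foxo1, a transcription factor held back by insulin, rose by 1.41 ± 0.30 in fresh IP, Irs2, an insulin receptor substrate, by 1.37 ± 0.48, and Mtor, the growth kinase, by 0.81 ± 0.13. Pik3r1, a regulatory subunit of PI3-kinase, fell by 0.79 on the log2 scale in fresh IP and rose by 0.49 ± 0.07 in the supernatant, where Irs2 rose by 1.08 ± 0.20. Jak2, the receptor's own kinase, fell from 45.6 ± 3.01 to 26.7 ± 2.47 CPM in fresh IP, a log2 fold change of -0.76 ± 0.09 (edgeR, adjusted p = 0.00445), and was 115.5 ± 3.23 and 116 ± 4.29 CPM in the supernatant (0.02 ± 0.03, adjusted p = 0.903). Stat3, its main transcription factor, did not pass in any preparation (0.00 ± 0.17 in fresh IP, -0.03 ± 0.15 in frozen IP and 0.24 ± 0.05 in the supernatant). The calls of Foxo1, Mtor and Jak2 in fresh IP outlasted the loss of any 1 library. Those of Irs2 and Pik3r1 ended without 1 of some libraries, at adjusted p up to 0.091 and 0.0547 in fresh IP and 0.0633 and 0.0921 in the supernatant, and there also in the fit of all 6 groups (0.106 and 0.115).

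Among 8 negative regulators of the signal, 1 was higher and 1 lower of 7 tested in fresh IP, 0 and 0 of 7 in frozen IP, and 0 higher and 1 lower of 8 in the supernatant, beside 25.1%, 22.6% and 6.22% of all genes. Ptpn1, the phosphatase that acts on JAK2, rose by 0.44 ± 0.09 in fresh IP. Pias3, an inhibitor of STAT3, fell by 0.70 in fresh IP and by 0.59 in the supernatant on the log2 scale. Socs3, a STAT3 target and feedback inhibitor, held 5.19 ± 2.87 CPM fed and 6.59 ± 0.721 CPM fasted in fresh IP and did not pass there (0.38 ± 0.46, edgeR adjusted p = 0.461), nor in frozen IP (0.27 ± 0.37) or the supernatant (0.56 ± 0.27). The calls of Ptpn1 and Pias3 were fragile, ending in 4 or 5 of 6 fits that left out 1 library.

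Other class I cytokine receptors went both ways with fasting. In fresh IP 2 were higher and 4 lower of 13 tested, in frozen IP 1 was higher and 4 lower of 17, and in the supernatant 0 of 18 passed, beside 25.1%, 22.6% and 6.22% of all genes. Lifr, the receptor of leukaemia inhibitory factor, fell from 1484 ± 1068 to 170.5 ± 36.9 CPM in fresh IP, a log2 fold change of -3.11 ± 0.60 (edgeR, adjusted p = 0.00513), and had -3.14 ± 0.60 in frozen IP. Without fed library C these were -2.33 and -2.33. Ghr, the growth hormone receptor, fell by 1.08 and Il11ra1 by 1.10 on the log2 scale in fresh IP. Il6ra, the interleukin 6 receptor, rose from 108 ± 6.13 to 296 ± 56.8 CPM in fresh IP (1.48 ± 0.16), and Il12rb1 rose from 0.202 ± 0.0892 to 0.665 ± 0.285 CPM. The call of Il12rb1 ended in 4 of 6 fits that left out 1 library, and those of Lifr, Il6ra, Ghr and Il11ra1 in none. Lepr, with 5.10, thus had the largest absolute fasting difference of the tested class I receptors in fresh IP, as a description, since it was chosen for it. In fed mice 4 of 18 receptors were higher in IP than in the supernatant and 12 lower, beside 76.4% of all genes that differed, Prlr (prolactin receptor, 5.68 ± 0.63, and 5.03 without fed IP library C) and Ghr (5.24 ± 0.14) being the highest.

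None of the 11 tested genes of receptor shedding and endosomal sorting passed with fasting in fresh or in frozen IP, and 1 of 12 was lower in the supernatant, beside 25.1%, 22.6% and 6.22% of all genes. The gene was Adam17, a sheddase, which fell by 0.65 on the log2 scale in the supernatant (adjusted p = 0.0717 in edgeR without fasted library A) and had 0.04 ± 0.14 in fresh IP. Adam10, the other sheddase, had -0.01 ± 0.13 in fresh IP and -0.16 ± 0.14 in the supernatant, and did not pass. The list of fasting-induced hepatocyte genes was chosen with earlier results of these data known, so it is no independent check of the fast. Of its genes 14 of 16 rose in fresh IP, 14 in frozen IP and 15 in the supernatant, with median log2 fold changes of 2.47, 2.48 and 1.82, against the same shares of all genes. That the fasted supernatant held this response is given beside the rise of Lepr there, whose dependence on it was not tested.

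**Figure D5:**
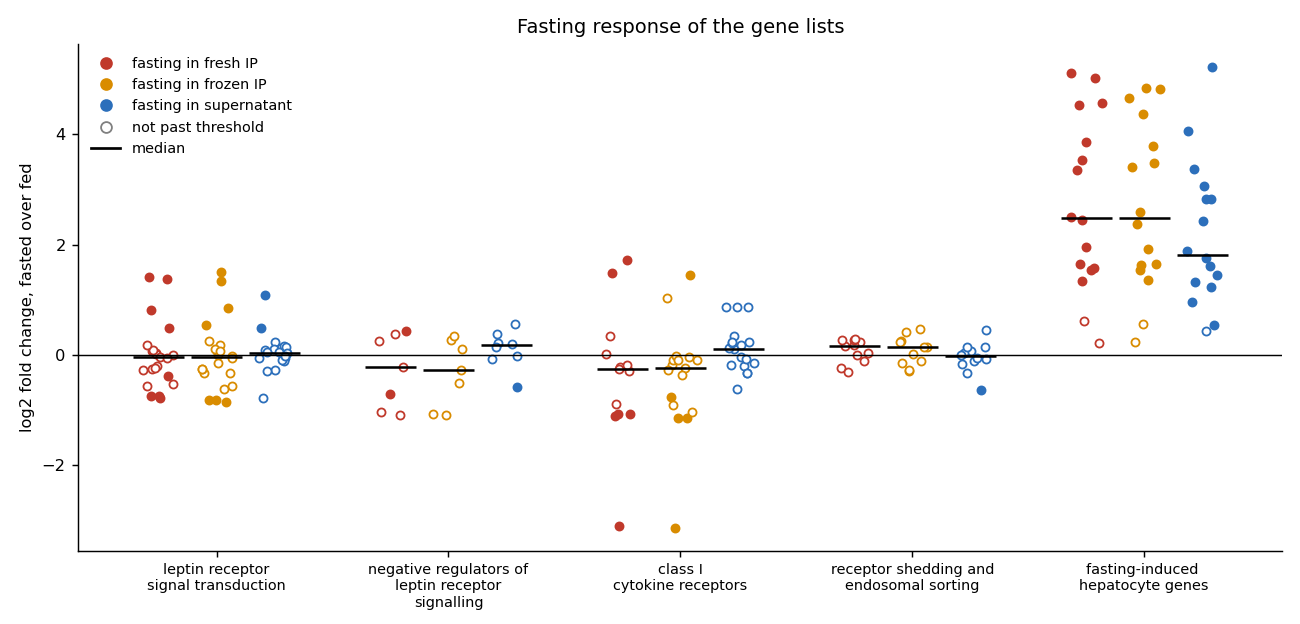
Log2 fold change of fasted over fed for each tested gene of 5 lists in fresh IP (red), frozen IP (orange) and supernatant (blue); filled points passed edgeR's test and black bars are medians. Fasting-induced genes stand at medians of 2.47, 2.48 and 1.82, and the medians of the other lists lie near 0, with Lifr alone near -3.1.

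Within 500 kb of Lepr or of Leprotl1 lay 15 genes besides the members, 10 of which had enough counts to be tested. In fresh IP 3 were higher and 1 lower, in frozen IP 2 and 1, and in the supernatant 1 and 0, beside 25.1%, 22.6% and 6.22% of all genes. On chromosome 4, Dnajc6 (auxilin, which uncoats clathrin vesicles), the next gene before Leprot, was scarce, with 0.0804 ± 0.0834 CPM fed and 0.444 ± 0.125 CPM fasted in fresh IP (2.403 ± 0.54, edgeR adjusted p = 0.0334), and did not pass in frozen IP. Its value rested on single libraries, with 3.81 without fed library C and 1.84 without fed library A. Jak1, a kinase of other cytokine receptors, held 366 ± 37.6 CPM fed and 373 ± 26.5 CPM fasted in fresh IP (0.05 ± 0.11) and did not pass. Pde4b, a cyclic AMP phosphodiesterase, fell by 1.08 on the log2 scale in fresh IP and by 1.14 in frozen IP, and Ak4, a mitochondrial adenylate kinase, rose by 0.71 ± 0.24 in frozen IP. On chromosome 8, Rbpms, an RNA-binding protein, rose by 0.91 ± 0.22 in fresh IP and 1.01 ± 0.20 in frozen IP, and Gsr, glutathione reductase, by 0.48 ± 0.12 in fresh IP and 1.21 ± 0.05 in the supernatant. Leaving out 1 library ended the calls of Dnajc6, Pde4b and Ak4 in 4 of 6 fits, that of Gsr in fresh IP in 5, that of Rbpms in fresh IP in 1, and that of Gsr in the supernatant in none.

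The genes whose log2 CPM ran most like that of Lepr over the 18 libraries, of 14443 candidates, were Myom1 (Pearson r = 0.962), Ybx3 (0.921), BC030336 (0.918), Mfsd2b (0.913), Cdc37 (0.908), Gtf2ird2 (0.907), Tmprss7 (0.904) and Cryzl1 (0.899). These are descriptions over libraries that share 6 mice, 2 feeding states and 2 fractions. Myom1, a protein of the muscle M band, held 3.43 and 22.6 CPM in fed and fasted fresh IP, 3.37 and 21.5 CPM in frozen IP and 11.7 and 31.4 CPM in the supernatant (group means). By Spearman's rho 4 of those 8 genes were again among the first 8, and over the 12 IP libraries alone 1 was, Cdc37, while Cyp3a11 came first (r = 0.981, against -0.125 over all 18 libraries). Leprot ran most like Ssh2 (0.994), Cttnbp2nl (0.993) and Fmnl2 (0.993), which follow the split between IP and supernatant: over the 12 IP libraries alone their r was 0.243, 0.159 and 0.69. Leprotl1 ran most like Smpdl3a (0.969), Tlr12 (0.968) and Mppe1 (0.967).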

How the data were processed

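Nuclear total RNA of 18 libraries was sequenced as a stranded library without poly-A selection, per the labels' protocols, so unspliced transcripts were counted too. The submitters' processing notes name mm10, STAR 2.4.2a and DESeq2 1.24.0, with no role given; the counting tool and its strand setting are not given in the sources used here. The authors deposited raw counts per gene, not normalized, for 20105 genes, with a span that equals end minus start in all of them, and a second table with the log2 fold changes and p-values of their comparisons, from which log2 fold changes are copied where it is named and the authors' p-values are not used. A further 6 columns of the count table match no sample and were not used.

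Each of 7 comparisons was tested on the counts of its 2 groups with edgeR 4.0.16 in R 4.3.3 (glmQLFit and glmQLFTest, TMM, filterByExpr by group, Benjamini-Hochberg adjusted p under 0.05), with no block. Lepr was kept out of the tests of IP minus supernatant in fed mice as well, a change from the plan. Of genes planted in simulated counts at a log2 fold change of 1, the test recovered 61.2% for fasting in fresh IP (12436 genes), 53.0% in frozen IP (12807) and 75.0% in supernatant (13835), and 53.5% and 56.0% for frozen minus fresh IP in fed (12560) and fasted mice (12581). At 2 it recovered 94.0, 94.9, 98.0, 95.0 and 93.0%. Calls among genes with no planted change numbered 18, 14, 19, 17 and 13 in the same order. CPM are TMM-scaled over the 18 libraries, and SEs come from log2 CPM with a prior count of 2. Alternatives were DESeq2 size factors, no filter, DESeq2 1.42.0, all 6 groups in one fit, each library left out in turn and, where the same mice stand on both sides, the column letter as a replicate block. No label gives the column letters. A column was therefore assigned to its group alone, and whether letters pair libraries was checked from the data: deviations from group means correlated at 0.555 to 0.902 for same-letter libraries of the 2 IPs, at 0.152 to 0.437 for same-letter IP and supernatant, and at -0.586 to 0.0101 for different letters, over 8478 genes. Replicates are separate mice, per the labels.

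The members and all 11 gene lists were chosen with earlier results of these data known. Named genes are the members, at most the 4 largest called changes of a list in a comparison and genes whose role is described, genes within 500 kb of Lepr or Leprotl1, and the 8, 3 and 3 genes most correlated with Lepr, Leprot and Leprotl1.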

Additional observations from a re-analysis of the deposited data

Results flagged for a closer look

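The members, other named genes and neighbours were screened for opposite separation of fed and fasted libraries. In 3 genes every fasted library lay on one side of every fed library in both IPs and on the other side in the supernatant, and in Leprot this held for frozen IP alone. How many of all genes do so was not counted, so nothing is read from the count of 3. The difference between the preparations was not tested. Leprot had a log2 fold change of -0.12 in frozen IP (-0.03 without fed library B), 0.50 in the supernatant and 0.01 in fresh IP, where fed and fasted libraries overlapped. Pik3r1 had -0.79 in fresh IP, -0.85 in frozen IP and 0.49 in the supernatant. Mtor had 0.81 and 0.85 in fresh and frozen IP and -0.090 in the supernatant, where it did not pass. Pde4b had -1.08 and -1.14 in fresh and frozen IP and 0.44 in the supernatant, where it did not pass.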

How the results depend on the processing

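Counts of genes past the threshold depended on the tool and the samples fitted. Fasting in frozen IP gave 2918 genes against 4366 in the fit of all 6 groups, and 1168 to 2271 with 1 library left out. Fasting in fresh IP gave 3145 genes, and 1429 to 2643 with 1 left out. Fasting in the supernatant gave 866 against 1881 in DESeq2 and 581 in the fit of all 6 groups, and 197 to 624 with 1 left out. Frozen minus fresh IP gave 0 in fed mice against 430 in DESeq2, 479 in the fit of all 6 groups and 181 with the replicate block, and 0 to 58 with 1 left out. In fasted mice it gave 63 against 359, 295 and 2939, and 0 to 1 with 1 left out. The cause was not tested. IP minus supernatant stayed within 1.5 times. Of 126 values of the 3 genes with a library left out and 96 under other settings, no called one changed sign. The sign was followed only where a call had been made. Values without a call could change sign: Leprot for fasting in fresh IP had 0.006, and -0.015 in the fit of all 6 groups. Among 336 and 228 values of other named genes no called one changed sign either, 77 and 7 lost their call, and 1 and 1 gained one. Lepr and Leprot in the supernatant lost their calls as given above, and the replicate block changed no call of the 3 genes. Of the 8 genes most like Lepr, 4 were kept by Spearman's rho and 1 over the IP libraries alone. Levels under DESeq2 size factors differed by -6.78 to 5.68%.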
